A study of Oryza sativa Japonica Group with 64 samples.

Results

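The 8 wild-type anther libraries of a rice photoperiod study were compared between the afternoon and the late night. The study sequenced RNA from 64 samples of flag leaves and anthers of rice (Oryza sativa ssp. japonica, line 9522) grown in paddy fields in Shanghai. Anthers at stage 12, a late stage of pollen formation, were taken at 16:00 and at 04:00 from wild type (WT) and from csa, a mutant of the MYB transcription factor gene CSA that is male sterile in short days and fertile in long days. Members were chosen by their labels alone: WT short day (SD) and long day (LD) anthers at 16:00, 4 libraries, against WT SD and LD anthers at 04:00, also 4 libraries. Long days were the natural 14.5 h of light, and short days of 12 h were made by covering plants with lightproof film from 18:00 to 6:00. Each combination of photoperiod and hour had 2 libraries that the submitters call biological replicates, and nothing further says how they were sampled, so p-values measure the spread between these libraries. Plants stood in light at 16:00 and in darkness at 04:00 under both regimes, so the comparison asks which anther genes differ between day and night while photoperiod is kept as a factor.

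Plant cells keep time with a circadian clock built from transcription factors that repress each other in turn over the day. In Arabidopsis, where most of these roles were worked out, the MYB repressors CCA1 and LHY peak near dawn, pseudo-response regulators (PRR) follow through the day, and an evening complex of ELF3, ELF4 and LUX acts around dusk. GIGANTEA and the blue light receptor FKF1 link the clock to day length and flowering. Leaf clocks also time photosynthesis genes and the nightly breakdown of starch. The anther is largely a sink organ, in which the tapetum, the innermost wall layer, feeds the developing pollen with imported sugar.

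Whole numbers of reads per gene were deposited, and the 8 libraries held 18682367 to 25914452 counts. Levels below are in CPM, the gene count relative to library size, after TMM scaling, which corrects for library composition. Differences are log2 values of 16:00 minus 04:00, as the mean of both photoperiods unless one is named, with a standard error (SE). A gene was called at an adjusted p below 0.05 in edgeR's quasi-likelihood test with Benjamini-Hochberg adjustment over all 25203 tested genes, fitted on WT and csa anthers together. Summed levels of lists, here and below, were scaled together with the flag leaf libraries, which gives lower CPM in anthers than the scale used for individual genes. Replicates stood apart in some groups: the summed level of late pollen genes was 44.2 and 124 CPM in the SD libraries of 16:00, 94.6 and 20.6 CPM in those of 04:00, 140.1 and 426 CPM in the LD libraries of 16:00 and 225 and 369 CPM in those of 04:00. Sporopollenin genes, active while the pollen wall is built, summed to 2835 and 1495 CPM in the SD libraries of 16:00 and to 2231 and 1643 CPM in those of 04:00, against 1271 to 1614 CPM in LD. In the late pollen sums every LD library lay above every SD library, at 140.1 CPM or more against 124 CPM or less. The part of stage and cell composition in the results, differences between photoperiods included, was not tested. In whole anthers, fewer cells of a type and less RNA per cell cannot be told apart.

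Of the tested genes, 4212 were called between the hours (16.7%), 2090 higher at 16:00 (8.29%) and 2122 higher at 04:00 (8.42%). Counts of list members over both photoperiods, given below, are to be read against these shares. At least 2-fold differences were shown by 592 of the former and 287 of the latter. The median difference of all tested genes was 0.01. Separately by photoperiod, 627 of the 4212 were called with the same sign in SD and in LD, 2389 in SD alone, 797 in LD alone, 369 in neither, and 30 with opposite signs. Opposite differences cancel in the mean of both photoperiods, so the choice of these genes kept the last count small. A call in SD alone or LD alone need not mean that the photoperiods differed. A model of only the 8 WT anther libraries, with photoperiod and hour as additive factors, called 528 genes, 321 higher at 16:00 and 207 higher at 04:00. This model has no term for an hour difference that differs between photoperiods, so such differences enter its residual spread and can remove a call. Without the first WT SD library of each hour, where sporopollenin genes were highest, 1332 were called. The 4 libraries of 16:00 all lay above the 4 of 04:00 for 1203 genes (4.77%), and all lay below them for 1201 genes (4.77%).

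Clock genes gave some of the largest differences in the anther. Of 14 clock genes, all tested, 7 were higher at 16:00 and 1 was higher at 04:00, with a list median of 0.80. OsLHY (LOC_Os08g06110), the rice counterpart of the dawn repressors, stood in SD at 46.4 and 42.6 CPM at 16:00 and at 511 and 427 CPM at 04:00. In LD it stood at 9.63 and 15.5 CPM at 16:00 and at 1014 and 901 CPM at 04:00. The hours did not overlap, and the fitted level, averaged over photoperiods on the log2 scale, was 28.3-fold higher at 04:00 (log2 difference -4.82, SE 0.16, edgeR adjusted p = 8.07e-09).

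OsGI (LOC_Os01g08700), the GIGANTEA gene, ran the other way. It measured 739 and 785 CPM at 16:00 against 97.3 and 89.7 CPM at 04:00 in SD, and 1129 and 1126 CPM against 30.4 and 37.3 CPM in LD. Every afternoon library exceeded every night library, with a fitted fold of 16.5 (log2 difference 4.04, SE 0.11, edgeR adjusted p = 2.22e-09). OsFKF1 (LOC_Os11g34460), its blue light receptor partner, measured 68.9 and 74.4 CPM against 3.74 and 4.05 CPM in SD and 124 and 119 CPM against 1.62 and 0.854 CPM in LD. The difference of 5.41 (SE 0.19, edgeR adjusted p = 8.07e-09) corresponds to a 42.5-fold higher level at 16:00, and the hours did not overlap. OsLUX (LOC_Os01g74020), the DNA-binding member of the evening complex, was 19.3-fold higher at 16:00. Its levels were 9.71 and 12.3 CPM against 0.926 and 1.16 CPM in SD, and 28.5 and 30.9 CPM against 0.888 and 0.804 CPM in LD (log2 difference 4.27, SE 0.17, edgeR adjusted p = 1.87e-08).

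Pseudo-response regulators, which repress the dawn genes, were higher at 16:00 in 4 of 5 cases. OsPRR73 (LOC_Os03g17570) measured 294 and 316 CPM against 53.8 and 58.4 CPM in SD, and 303 and 310 CPM against 26.2 and 30.3 CPM in LD. Every afternoon library was higher, the LD libraries were the lowest at night, and the difference was 2.94 (SE 0.08, edgeR adjusted p = 2.22e-09). OsPRR95 (LOC_Os09g36220) differed by 2.26 (SE 0.09), with 113 to 119 CPM against 23.3 to 23.8 CPM in SD and 76.2 to 87.4 CPM against 16.5 to 18.6 CPM in LD. OsPRR37 (LOC_Os07g49460), a day length repressor of flowering in rice, differed by 2.08 (SE 0.10), and OsPRR1 (LOC_Os02g40510), the TOC1 counterpart, by 1.58 (SE 0.07). The edgeR adjusted p of these last 3 genes lay between 1.65e-08 and 1.37e-07, and none had overlapping hours. The exception was OsPRR59 (LOC_Os11g05930), at 29.1 to 32.6 CPM at 16:00 and 29.5 to 37.3 CPM at 04:00 (difference -0.10, SE 0.08, edgeR adjusted p = 0.383).

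The remaining evening complex genes and the ZEITLUPE-type F-box genes, which mark clock proteins for breakdown in Arabidopsis, were not called over both photoperiods. OsELF4a (LOC_Os11g40610) ranged from 14.7 to 19.1 CPM at 16:00 and from 15.04 to 19.2 CPM at 04:00. OsELF3-2 (LOC_Os01g38530) ranged from 30.2 to 49.9 CPM and from 29.7 to 39.8 CPM, and OsZTL1 (LOC_Os06g47890) from 109.7 to 119 CPM and from 102 to 125 CPM. Their differences were -0.02, 0.01 and 0.01 (SE 0.07 to 0.11). OsELF3-1 (LOC_Os06g05060) and OsZTL2 (LOC_Os02g05700) were called in SD alone, both higher at 04:00, by -0.58 (SE 0.14, edgeR adjusted p = 0.00957) and -0.48 (SE 0.14, edgeR adjusted p = 0.0211).

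**Figure D1:**
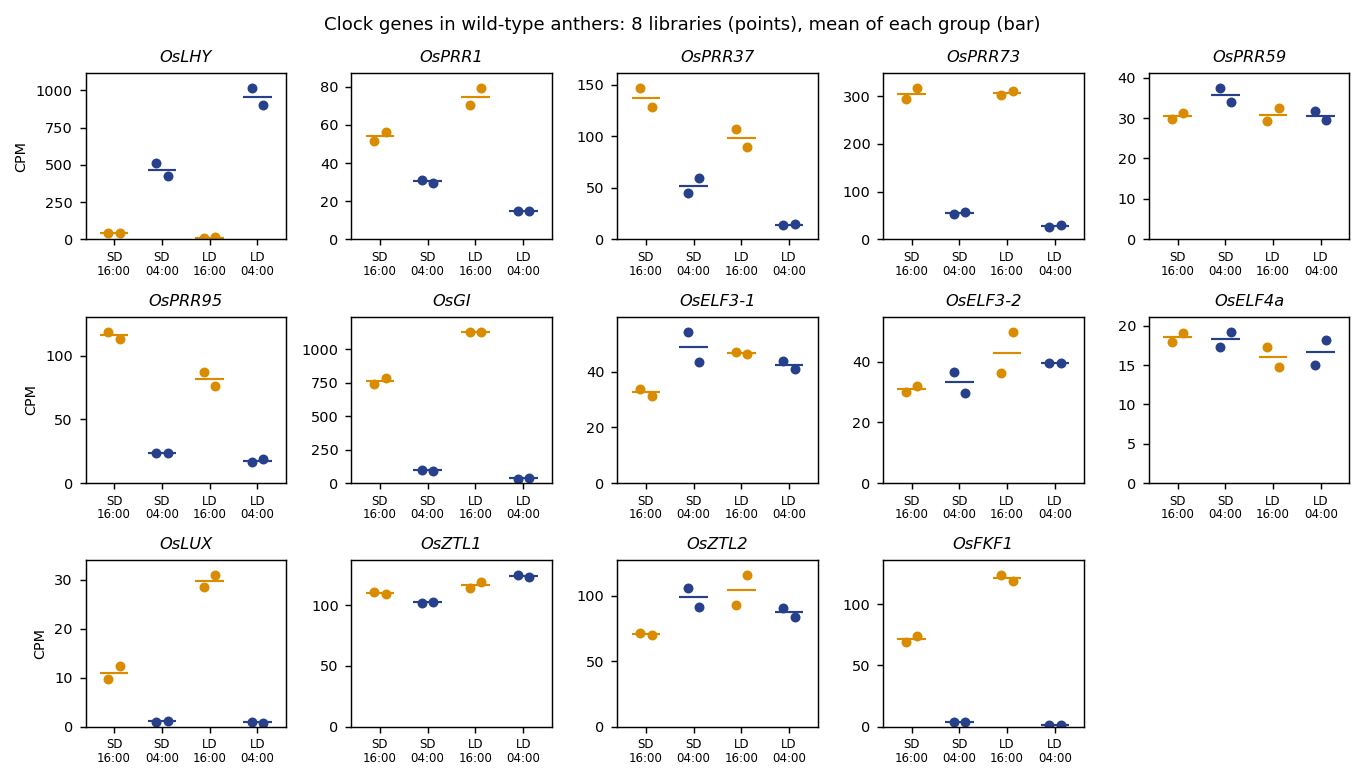
Level of each of the 14 clock genes in the 8 WT anther libraries. The vertical axes give CPM and start at 0, points are libraries, bars are means of the 2 libraries of a photoperiod and hour, and colour marks the hour. OsLHY is high in the 04:00 libraries, at 427 to 1014 CPM, while OsGI, OsFKF1, OsLUX and 4 OsPRR genes are high in the 16:00 libraries.

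The hour difference was larger in long days for most of the called clock genes. Across all genes, 7533 were called in SD (29.9%), 2770 in LD (11%) and 6636 for a difference between photoperiods in the size of the hour difference (26.3%). Of the 8 called clock genes, 7 had the larger difference in LD and the same 7 were called for that difference. OsLHY differed by -3.40 (SE 0.22) in SD and by -6.25 (SE 0.25) in LD, which is 10.5-fold and 76.1-fold, and the gap between photoperiods had an edgeR adjusted p of 0.000413. OsGI differed by 3.03 (SE 0.15) in SD and 5.06 (SE 0.17) in LD, or 8.15-fold and 33.3-fold, with an edgeR adjusted p of 0.000359 for the gap. OsPRR95 was the gene without such a gap, at 2.30 (SE 0.12) and 2.22 (SE 0.12), with an edgeR adjusted p of 0.751. The 8 calls over both photoperiods held in each of the 15 other settings tried. Over the 879 genes called between the hours with at least a 2-fold difference, 48.2% had the larger difference in LD, and the median absolute log2 difference was 1.60 in SD and 1.49 in LD.

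Light-harvesting genes were higher in the afternoon, mostly in short days. The list of photosynthesis genes had 15 members, all tested, of which 12 were higher at 16:00 and 1 was higher at 04:00, with a median of 1.61. In SD 14 were higher at 16:00 and 0 at 04:00, with a median of 2.92, where 14.5% of all genes were called higher at 16:00. In LD 5 were higher at 16:00 and 1 at 04:00, with a median of 0.69, where 5% of all genes were called higher at 16:00 and 6% at 04:00. The gap between photoperiods was called for 13 of the 15, each with the larger value in SD, beside 13.1% of all genes in that direction. Such genes belong to families of near-identical copies whose reads may have been split or shared in counting, so values of individual members are uncertain. The additive model of 8 libraries called 3 members higher at 16:00 and 0 at 04:00, and without the first SD library of each hour 10 and 0 were called.

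CAB1R (LOC_Os09g17740), which encodes a chlorophyll a/b-binding antenna protein of photosystem II, measured 324 and 458 CPM at 16:00 against 16.6 and 20.7 CPM at 04:00 in SD. In LD it measured 210.5 and 122 CPM against 51.4 and 46.4 CPM. All afternoon libraries were higher, and the difference was 4.40 (SE 0.32) in SD and 1.76 (SE 0.29) in LD, with an edgeR adjusted p of 0.00182 for the gap. CAB2R (LOC_Os01g41710), a second antenna gene, measured 725 and 974 CPM against 48.7 and 36.4 CPM in SD, and 484 and 213 CPM against 92.6 and 71.4 CPM in LD, again without overlap (differences 4.32 and 2.09, SE 0.37 and 0.34). LHCB3 (LOC_Os07g37550), of the same antenna, and LHCA4 (LOC_Os08g33820), of the photosystem I antenna, differed by 3.49 and 3.21 in SD (SE 0.30 and 0.28). In LD their differences were 1.18 (SE 0.27, edgeR adjusted p = 0.0192) and 0.84 (SE 0.26, edgeR adjusted p = 0.0553). Summed over 11 light-harvesting genes on the scale shared with the leaf, the level was 2374 and 3293 CPM at 16:00 and 271 and 275 CPM at 04:00 in SD, and 1409 and 767 CPM against 666 and 502 CPM in LD. The summed hours thus did not overlap, although the second LD library of 16:00 lay close to the first LD library of 04:00.

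RCA (LOC_Os11g47970), the activase that keeps the carbon-fixing enzyme Rubisco working, was the member higher at 04:00. It measured 87.4 and 133 CPM against 149 and 168 CPM in SD, and 132 and 109 CPM against 351 and 287 CPM in LD (difference -0.96, SE 0.22, edgeR adjusted p = 0.012). On the same shared scale the 3 Rubisco small subunit genes together gave 599 and 1069 CPM against 252 and 332 CPM in SD, and 801 and 651 CPM against 844 and 645 CPM in LD, so only SD separated the hours. Photosynthesis genes also mark green tissue. Their sum in a fit with the flag leaves was 643 to 4474 CPM in the anther libraries and 54376 to 132079 CPM in the leaf libraries, and the part of green tissue in the anther differences was not tested.

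Among 9 genes of chlorophyll and carotenoid synthesis, all tested, 0 were higher at 16:00 and 3 were higher at 04:00, with a median of -0.29. The shares of all genes in these directions were 8.29% and 8.42%. In SD 2 were higher at 16:00 and 0 at 04:00, beside 14.5% and 15.4% of all genes. In LD 0 were higher at 16:00 and 5 at 04:00, beside 5% and 6% of all genes. CHLH (LOC_Os03g20700), a subunit of the magnesium chelatase that commits precursors to chlorophyll, measured 100.4 and 117 CPM at 16:00 against 138 and 125 CPM at 04:00 in SD. In LD it measured 77.7 and 59.3 CPM against 179 and 134 CPM. The hours did not overlap, with a difference of -0.73 (SE 0.14, edgeR adjusted p = 0.00579). PSY3 (LOC_Os09g38320), a phytoene synthase of carotenoid synthesis, and HEMA1 (LOC_Os10g35840), which starts tetrapyrrole synthesis, were called at -0.76 (SE 0.16) and -0.38 (SE 0.09). Their SD differences were -0.05 and -0.04, and their LD differences were -1.46 (SE 0.24) and -0.73 (SE 0.13).

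Catalases, which remove hydrogen peroxide, split by gene. CATA (LOC_Os02g02400) measured 332 and 430 CPM at 16:00 against 44.1 and 39.4 CPM at 04:00 in SD, and 285 and 322 CPM against 184 and 148 CPM in LD. Afternoon levels were higher throughout, and the difference was 3.19 (SE 0.24) in SD and 0.87 (SE 0.22) in LD, with an edgeR adjusted p of 0.0011 for the gap. CATC (LOC_Os03g03910) was high in LD at 04:00, at 24.3 and 16.8 CPM, and ranged from 2.70 to 4.40 CPM in the other 6 libraries (LD difference -2.58, SE 0.48, edgeR adjusted p = 0.00599). CATB (LOC_Os06g51150) ranged from 390 to 426 CPM at 16:00 and from 302 to 416 CPM at 04:00 (difference 0.18, SE 0.08, edgeR adjusted p = 0.123).

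**Figure D2:**
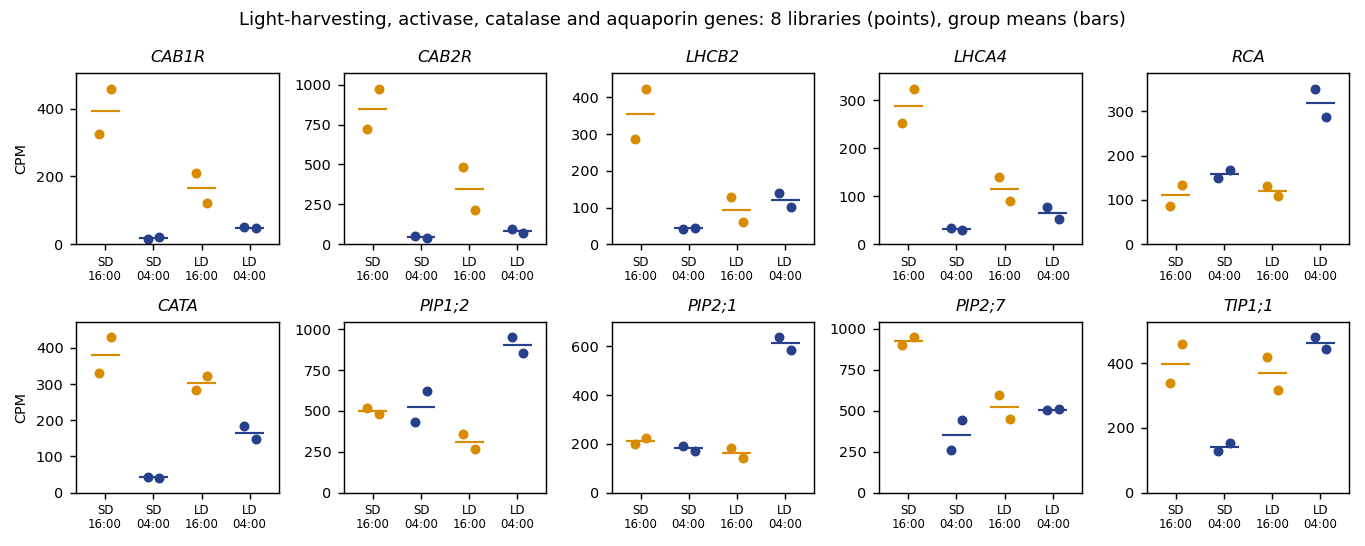
Levels of 10 genes of light harvesting, Rubisco activation, hydrogen peroxide removal and water transport in the 8 WT anther libraries. The vertical axes give CPM and start at 0, points are libraries and bars are means of 2 libraries. CAB1R, CAB2R, LHCA4 and CATA lie highest in the SD libraries of 16:00, while RCA, PIP1;2 and PIP2;1 lie highest in the LD libraries of 04:00.

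Among 16 tested genes of photoreceptors and light signalling (17 listed), 1 was higher at 16:00 and 3 were higher at 04:00, with a median of -0.12. The shares of all genes were 8.29% and 8.42%. COP1 (LOC_Os02g53140), the ubiquitin ligase that removes light-response factors in the dark in Arabidopsis, measured 22.7 and 24.9 CPM against 59.4 and 44.3 CPM in SD, and 29.2 and 34.8 CPM against 49.7 and 46.4 CPM in LD. Every night library was higher (difference -0.85, SE 0.12, edgeR adjusted p = 0.000641). PHYA (LOC_Os03g51030), the phytochrome that builds up in darkness, measured 65.1 and 71.6 CPM against 128 and 129 CPM in SD, and 124 and 154 CPM against 239.9 and 192 CPM in LD. The hours separated within each photoperiod but overlapped across them (difference -0.77, SE 0.13, edgeR adjusted p = 0.00232). CRY2 (LOC_Os02g41550), a blue light receptor, was the member higher at 16:00, at 63.3 to 72.1 CPM against 51.3 to 57.7 CPM (difference 0.28, SE 0.07, edgeR adjusted p = 0.0172). ELIP (LOC_Os01g14410), an early light-induced protein gene, stayed at or below 1.16 CPM in all 8 libraries (difference -1.85, SE 0.57, edgeR adjusted p = 0.0468), and its call was lost in 14 of 15 alternatives.

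Of 9 tested flowering genes (12 listed), 1 was higher at each hour. OsCOL4 (LOC_Os02g39710), a CONSTANS-like repressor of flowering in rice, stood at 82.1 and 78.2 CPM in LD at 04:00 and at 24.5 to 33.4 CPM in the other 6 libraries (LD difference -1.68, SE 0.15, edgeR adjusted p = 4.12e-05). MADS50 (LOC_Os03g03070), a flowering activator, was 36.2 and 34.3 CPM against 18.8 and 21.2 CPM in SD, and 23.1 and 32.0 CPM against 26.8 and 21.9 CPM in LD, where the hours overlapped. Its difference over both was 0.50 (SE 0.14, edgeR adjusted p = 0.0283).

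Among sugar and starch genes, BAM3 (LOC_Os10g41550), a β-amylase of the family that breaks down starch, was the 1 called gene of 7 tested in starch breakdown. It measured 26.3 and 20.9 CPM at 16:00 against 99.7 and 83.3 CPM at 04:00 in SD, and 15.8 and 8.63 CPM against 104 and 77.7 CPM in LD. No afternoon library reached a night library, and the fitted level was 5.37-fold higher at 04:00 (log2 difference -2.42, SE 0.18, edgeR adjusted p = 3.96e-06). In the synthesis list of 23 tested genes (24 listed), 2 were higher at each hour, and the median was -0.14. In SD 1 was higher at 16:00 and 8 were higher at 04:00, beside 14.5% and 15.4% of all genes. In LD the counts were 4 and 2, beside 5% and 6% of all genes. The gap between photoperiods was called for 1 gene toward higher afternoon values in SD and for 8 toward higher afternoon values in LD, the latter beside 13.3% of all genes. Pho1 (LOC_Os03g55090), the plastid starch phosphorylase, differed by 0.93 (SE 0.11, edgeR adjusted p = 0.000234), at 65.5 to 94.2 CPM against 27.2 to 58.2 CPM, and BEIIa (LOC_Os04g33460), a branching enzyme, by 0.64 (SE 0.12, edgeR adjusted p = 0.00421). Within photoperiods, Pho1 and BEIIa were called in LD alone, with called gaps (SD minus LD) of -1.10 and -1.19. The additive model of 8 libraries, where such gaps enter the residual spread, called neither gene. SSIIIb (LOC_Os04g53310), a starch synthase, differed by -0.79 (SE 0.12, edgeR adjusted p = 0.00127), at 29.9 to 47.3 CPM against 48.5 to 73.2 CPM. SSIIc (LOC_Os10g30156), of the same enzyme family, differed by -0.37 (SE 0.09) and was called in SD alone. AGPL2 (LOC_Os01g44220), a large subunit of the enzyme that makes the starch precursor ADP-glucose, was called with opposite signs in SD, at -0.79 (SE 0.12), and in LD, at 0.71 (SE 0.12).

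Among 30 tested genes of sugar transport and invertase (32 listed), 1 was higher at 16:00 and 5 were higher at 04:00, with a median of -0.00. In both directions together, 16.7% of all genes were called. OsSWEET2b (LOC_Os01g50460), of the SWEET family of sugar transporters, measured 0.162 and 0.608 CPM against 1.96 and 1.16 CPM in SD, and 0.178 and 0.147 CPM against 6.16 and 6.23 CPM in LD. Its levels were low in the anther and did not overlap (difference -3.59, SE 0.38, edgeR adjusted p = 7.72e-05). OsMST6 (LOC_Os07g37320), a monosaccharide transporter, and OsVIN2 (LOC_Os02g01590), a vacuolar invertase that splits sucrose, were highest in LD at 04:00. OsMST6 stood there at 33.6 and 27.9 CPM and elsewhere at 5.84 to 16.3 CPM, and OsVIN2 stood there at 189 and 173 CPM and elsewhere at 54.3 to 81.8 CPM. Their LD differences were -2.17 (SE 0.24) and -1.39 (SE 0.23), and their SD differences of 0.67 and 0.14 had edgeR adjusted p of 0.0506 and 0.675. OsTMT2 (LOC_Os02g13560), a vacuolar sugar carrier, was the member higher at 16:00, by 0.41 (SE 0.11, edgeR adjusted p = 0.0239).

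In the short list of sugar starvation and trehalose signalling, 2 of 6 tested genes were higher at 04:00 and 0 at 16:00. TPP1 (LOC_Os02g44230) encodes a phosphatase that turns trehalose 6-phosphate, a sugar signal, into trehalose. It measured 62.1 and 46.5 CPM against 95.5 and 97.3 CPM in SD, and 14.0 and 8.48 CPM against 49.5 and 49.5 CPM in LD. Night exceeded afternoon within each photoperiod, with overlap across them (difference -1.48, SE 0.17, edgeR adjusted p = 0.000171). TPP2 (LOC_Os10g40550), of the same enzyme family, differed by -0.43 (SE 0.10, edgeR adjusted p = 0.0168). Sucrose metabolism and hexokinase had 1 called gene at each hour of 22 tested (23 listed), namely SUS4 (LOC_Os03g22120), a sucrose synthase, at 0.41 (SE 0.09), and HXK4 (LOC_Os07g09890), a hexokinase, at -0.36 (SE 0.09).

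Among 11 tapetum genes, all tested, 1 was higher at 16:00 and 2 were higher at 04:00, with a median of 0.16, beside 16.7% of all genes called. In SD 4 were higher at 16:00 and 3 higher at 04:00, beside 29.9% of all genes. In LD the counts were 0 and 1, beside 11% of all genes. UDT1 (LOC_Os07g36460), a bHLH factor needed for early tapetum differentiation, measured 14.0 and 10.9 CPM against 32.5 and 44.1 CPM in SD, and 11.0 and 7.70 CPM against 21.8 and 22.7 CPM in LD. Every night library was higher (difference -1.43, SE 0.16, edgeR adjusted p = 0.000121). TDR (LOC_Os02g02820), a bHLH factor of tapetum degeneration, was 155 and 171 CPM against 74.0 and 83.0 CPM in SD, and 228 and 206 CPM against 191 and 178 CPM in LD. It was called in SD at 1.06 (SE 0.17, edgeR adjusted p = 0.00132) and its LD difference of 0.23 had an edgeR adjusted p of 0.413. GAMYB (LOC_Os01g59660), a gibberellin-responsive MYB factor of the anther, differed by -0.25 (SE 0.07, edgeR adjusted p = 0.0403). The summed level of the tapetum list was 5811 and 4693 CPM in SD at 16:00, 2608 and 3158 CPM in SD at 04:00, and 2220 to 3675 CPM in LD.

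edgeR called 0 of 10 sporopollenin genes and 0 of 5 late pollen genes over both photoperiods, with medians of -0.12 and 0.55. In both lists 0 members had an unadjusted p below 0.05, and DESeq2 also called 0, but edgeR with no filter on low counts called 4 sporopollenin genes higher at 04:00 and 2 late pollen genes higher at 16:00. CSA (LOC_Os01g16810), the MYB factor whose mutant the study follows, measured 107 and 85.1 CPM at 16:00 against 92.8 and 123 CPM at 04:00 in SD. In LD it measured 74.1 and 37.9 CPM against 79.6 and 75.5 CPM. The hours overlapped (difference -0.32, SE 0.22, edgeR adjusted p = 0.352, and 0.048 with no filter on low counts). In flag leaves the sums of tapetum, sporopollenin and late pollen genes were 6.85 to 28.2 CPM, 5.70 to 12.4 CPM and 1.14 to 16.1 CPM, against at least 2220, 1271 and 20.6 CPM in the anthers.

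Of 14 gibberellin genes, all tested, 3 were higher at 16:00 and 1 was higher at 04:00, with a median of 0.40, beside 8.29% and 8.42% of all genes. GA2ox3 (LOC_Os01g55240), an enzyme that inactivates gibberellins, measured 69.7 and 98.7 CPM against 10.3 and 12.5 CPM in SD, and 66.8 and 71.1 CPM against 17.8 and 14.3 CPM in LD. Afternoon libraries were all higher, by 5.64-fold on average (log2 difference 2.50, SE 0.15, edgeR adjusted p = 5.75e-07). GID1 (LOC_Os05g33730), the gibberellin receptor, differed by 0.47 (SE 0.11), GA20ox2 (LOC_Os01g66100), a synthesis enzyme, by 0.80 (SE 0.24), and GID2 (LOC_Os02g36974), the F-box protein that removes the repressor SLR1, by -0.33 (SE 0.07). SLR1 (LOC_Os03g49990) itself was called in SD alone, at 1.13 (SE 0.16, edgeR adjusted p = 0.000637).

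Jasmonate genes, which serve anther opening and late stamen development, gave 2 genes higher at 16:00 and 4 higher at 04:00 of 19 tested. Their median was -0.09, and 8.29% and 8.42% of all genes were called in these directions. AOC (LOC_Os03g32314), the allene oxide cyclase of jasmonate synthesis, measured 74.2 and 77.5 CPM against 28.8 and 33.7 CPM in SD, and 57.6 and 46.2 CPM against 55.6 and 51.8 CPM in LD. The hours separated in SD and overlapped in LD (differences 1.28 and -0.05, SE 0.17 and 0.17). JAZ4 (LOC_Os09g23660), a repressor of the pathway, stood at 50.1 and 46.1 CPM in LD at 04:00 and at 18.5 to 25.7 CPM elsewhere. COI1a (LOC_Os01g63420), a receptor of the hormone, differed by -0.42 (SE 0.09, edgeR adjusted p = 0.0106), and JAZ8 (LOC_Os09g26780) by 0.46 (SE 0.12, edgeR adjusted p = 0.0282).

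Aquaporins, the water channels of the plasma membrane (PIP) and the vacuole membrane (TIP), were called in different directions in the photoperiods. The members called over both photoperiods were each called within SD alone or within LD alone. Of 13 tested (14 listed), 2 were higher at each hour over both photoperiods, while in SD 4 were higher at 16:00 and 0 at 04:00, and in LD 0 and 7. Of all genes, 14.5% were called higher at 16:00 in SD and 6% higher at 04:00 in LD. The gap between photoperiods was called for 10 of the 13, all toward higher afternoon values in SD, beside 13.1% of all genes, with a list median of 1.57 beside 0.00 for all genes. PIP2;1 (LOC_Os07g26690) measured 201 and 224 CPM against 191 and 172 CPM in SD, and 183 and 141 CPM against 638 and 585 CPM in LD. The LD libraries of 04:00 thus stood above the other 6 (LD difference -1.92, SE 0.20, edgeR adjusted p = 9.58e-05). PIP1;2 (LOC_Os04g47220) and PIP1;1 (LOC_Os02g44630) did the same in LD, at -1.54 (SE 0.22) and -0.86 (SE 0.15). PIP2;7 (LOC_Os09g36930) and TIP1;1 (LOC_Os03g05290) were called in SD alone, at 1.40 (SE 0.23) and 1.51 (SE 0.22), since their SD libraries of 04:00 lay at 260 and 444 CPM and at 127 and 152 CPM, the lowest of the 8. The additive model of 8 libraries, where such gaps enter the residual spread, called 0 aquaporins, so it is no separate check of these calls. Reads of near-identical PIP genes may also have been shared in counting.

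Heat shock and folding genes gave 2 higher at 16:00 and 1 higher at 04:00 of 12 tested, with a median of 0.22, beside 8.29% and 8.42% of all genes. BiP1 (LOC_Os02g02410), the main chaperone of the endoplasmic reticulum, was 1161 and 1246 CPM against 987 and 1067 CPM in SD, and 1705 and 2159 CPM against 818 and 975 CPM in LD (difference 0.67, SE 0.12, edgeR adjusted p = 0.00425). HSP26 (LOC_Os03g14180), a small heat shock protein, stood at 4.86 and 4.80 CPM in LD at 16:00 and at 0.731 to 1.68 CPM elsewhere. HSFA2d (LOC_Os03g06630), a heat shock transcription factor, was 4.37 to 5.77 CPM at 16:00 and 6.55 to 10.9 CPM at 04:00 (difference -0.76, SE 0.13, edgeR adjusted p = 0.00248). Air temperature, which also differs between day and night, was not among the values used here, so light and temperature cannot be told apart. Of 8 nitrogen genes 2 were higher at 16:00: NiR (LOC_Os01g25484), nitrite reductase, at 0.66 (SE 0.13, edgeR adjusted p = 0.00677), and ASN2 (LOC_Os06g15420), an asparagine synthetase, at 0.26 (SE 0.07, edgeR adjusted p = 0.033). NiR was called in SD alone and ASN2 in neither photoperiod. By photoperiod, 2 nitrogen genes were higher at 16:00 and 0 at 04:00 in SD, with a median of 0.43, beside 14.5% and 15.4% of all genes. In LD 0 were higher at 16:00 and 2 at 04:00, with a median of -0.36, beside 5% and 6% of all genes. edgeR and DESeq2 called 0 of the 2 tested cold response genes (3 listed), and 0 had an unadjusted p below 0.05 in edgeR.

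Over the 21 lists, 69 members were called over both photoperiods. Of these, 22 were called with the same sign in SD and LD, 24 in SD alone, 20 in LD alone and 3 in neither. The 8 clock genes were all among the 22, together with COP1, PHYA, OsSWEET2b, SSIIIb, BAM3, TPP1, UDT1, GA2ox3, CATA and 5 photosynthesis genes. Across all genes, 333 were higher at 16:00 in both photoperiods, which was 9.1% of those in SD and 26.4% of those in LD, while 327 of the SD genes were called in the opposite direction in LD. Higher at 04:00 in both were 294, 7.59% of those in SD and 19.5% of those in LD, and 218 of the SD genes were called in the opposite direction.

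**Figure D3:**
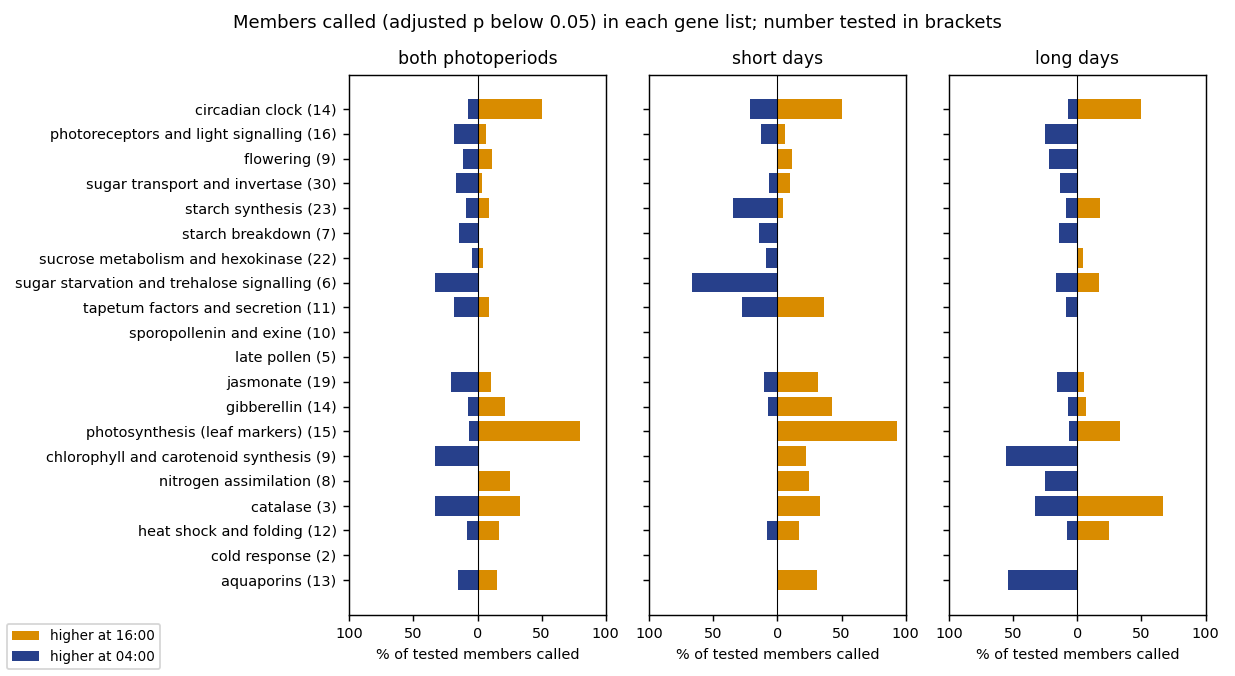
Share of tested members of each list called over both photoperiods, in short days and in long days. Bars to the right give members higher at 16:00 and bars to the left members higher at 04:00, in percent of the number tested, given in brackets. Photosynthesis genes extend to the right in short days, with 14 of 15, while aquaporins extend to the right in short days and to the left in long days.

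**Figure D4:**
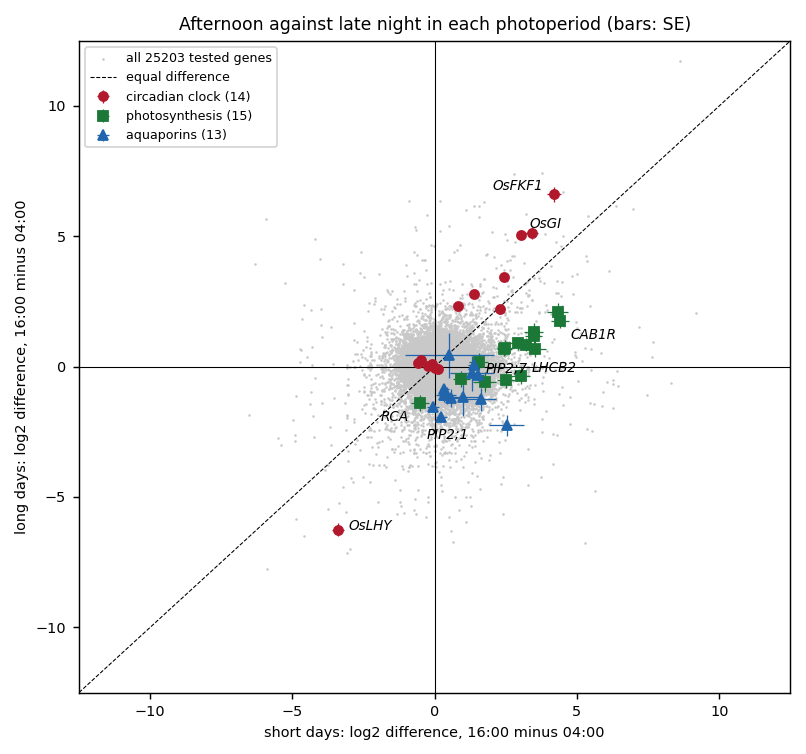
Difference between 16:00 and 04:00 in short days (horizontal axis, log2) against that in long days (vertical axis, log2) for all 25203 tested genes in grey, with 14 clock, 15 photosynthesis and 13 aquaporin genes in colour and bars of 1 SE. Clock genes with large differences lie farther from 0 on the long-day axis, with OsLHY at -3.40 and -6.25, photosynthesis genes lie to the right of the diagonal, and most aquaporins lie below 0 on the long-day axis.

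By ID, the genes of largest difference among those past the threshold, with at least 5 CPM at the higher hour and no overlap, were 2 higher at 16:00 and 2 higher at 04:00. LOC_Os01g42190 had 1285 counts over the 4 libraries of 16:00 and 1 count over those of 04:00, a ratio of 1321 after scaling to library size (95% interval 237 to 52234, counting error only). LOC_Os04g57880 measured 43.6 and 57.5 CPM against 1.89 and 2.57 CPM in SD, and 88.9 and 75.7 CPM against 0.679 and 0.904 CPM in LD (difference 5.60, SE 0.24, edgeR adjusted p = 4.24e-08). LOC_Os04g49450 measured 2.43 and 2.29 CPM against 67.0 and 70.6 CPM in SD, and 1.65 and 0.833 CPM against 77.2 and 67.2 CPM in LD (difference -5.35, SE 0.19, edgeR adjusted p = 9.61e-09). The hours of these 3 were far apart in both photoperiods. LOC_Os10g18370 was highest in LD at 04:00, at 19.9 and 21.8 CPM, with 2.18 and 0.736 CPM in SD at 04:00 and at most 0.328 CPM at 16:00.

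The lowest p for a gap between photoperiods belonged to 4 genes with their hour difference mainly or oppositely in SD. LOC_Os05g14240 measured 152 and 142 CPM against 18.9 and 18.9 CPM in SD, and 52.3 and 42.9 CPM against 39.1 and 41.7 CPM in LD (gap 2.72, SE 0.17, edgeR adjusted p = 6.18e-05). LOC_Os04g58055 was higher at 16:00 in SD by 2.39 (SE 0.16), and its LD difference was -0.43 (SE 0.15, edgeR adjusted p = 0.09). LOC_Os08g37840 and LOC_Os09g20024 were called with opposite signs. The former measured 26.0 and 26.5 CPM against 6.59 and 7.15 CPM in SD but 21.4 and 18.0 CPM against 40.7 and 42.7 CPM in LD, and the latter 16.2 and 15.8 CPM against 7.67 and 7.20 CPM in SD but 10.7 and 8.82 CPM against 21.0 and 19.6 CPM in LD.

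Flag leaves from the same tillers allowed the anther differences to be set beside those of a source organ. In a joint fit of 25652 genes, 14134 were called in the leaf (55.1%), 2647 in the anther (10.3%, with 5.35% higher at 16:00 and 4.97% higher at 04:00), and 10019 for a difference between the tissues in the size of the hour difference (39.1%). Of the 1373 genes higher at 16:00 in the anther, 1018 (74.1%) were also higher at 16:00 in the leaf, which was 14.5% of the leaf genes. Of the 1274 higher at 04:00 in the anther, 944 (74.1%) were shared, which was 13.3% of the leaf genes. For scale, 27.3% and 27.8% of all genes were called in these directions in the leaf.

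All 8 called clock genes had a larger difference in the leaf, and the gap between tissues was called for each. OsPRR73 differed by 9.08 in the leaf and 2.95 in the anther, with an edgeR adjusted p of 2e-10 for the gap. Mean leaf levels of this gene were 895 CPM at 16:00 and 2.16 CPM at 04:00 in SD and 789.5 CPM and 1.11 CPM in LD, so its leaf level at 04:00 was below that of the anther. OsLHY differed by -7.05 in the leaf and -4.81 in the anther (edgeR adjusted p = 3.55e-06 for the gap). OsPRR59, with no call in the anther, was higher at 16:00 in the leaf by 1.76 (edgeR adjusted p = 6.07e-09). CAB1R differed by 7.43 in the leaf and 3.10 in the anther, and BAM3 by -6.21 and -2.41. GA2ox3 differed by 2.57 in the leaf and 2.51 in the anther, with a gap of -0.06 and an edgeR adjusted p of 1.

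TPP1 was called in opposite directions. It was higher at 16:00 in the leaf, with means of 11.0 against 0.363 CPM in SD and 14.9 against 0.741 CPM in LD (difference 4.63, edgeR adjusted p = 8.73e-09), and higher at 04:00 in the anther (gap -6.10, edgeR adjusted p = 1.58e-08). UDT1 differed by -1.12 in the leaf at 1.92 to 5.27 CPM, and its gap had an edgeR adjusted p of 0.573.

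**Figure D5:**
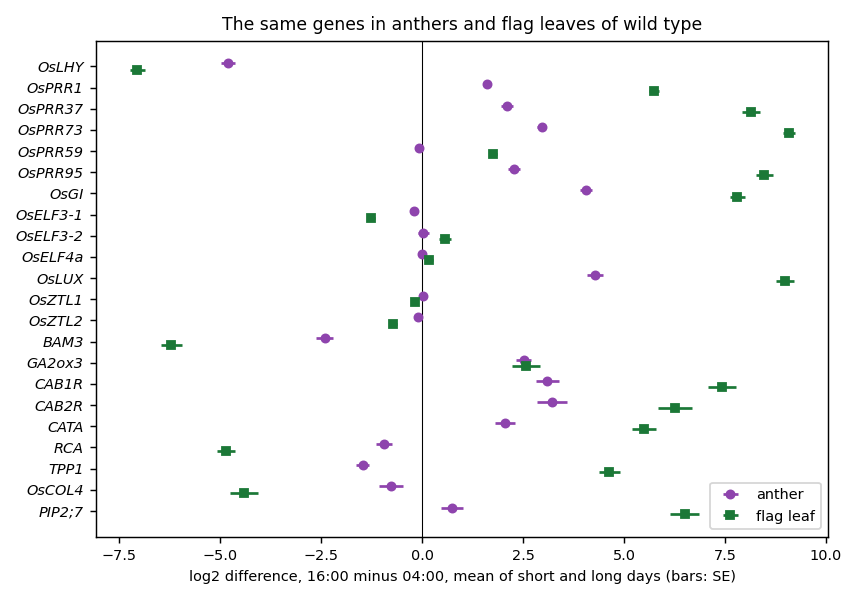
Difference between 16:00 and 04:00 (horizontal axis, log2, mean of both photoperiods) in WT anthers (circles) and WT flag leaves (squares) in the joint fit, with bars of 1 SE, for 13 clock genes and 9 others. OsFKF1 is left out because its leaf level at 04:00 was at or near 0. Leaf values of the called clock genes lie farther from 0, for OsPRR73 at 9.08 against 2.95, and TPP1 lies on opposite sides of 0.

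Anthers of the csa mutant, sampled the same way, differed from WT in the size of the hour difference for 6765 genes (26.8%). Of the 8 called clock genes, 6 were among them. OsPRR73 differed by 4.61 in csa and 2.94 in WT (edgeR adjusted p = 4.5e-05 for the gap), OsGI by 5.61 and 4.04 (edgeR adjusted p = 0.000338), and OsLHY by -4.12 and -4.82 (edgeR adjusted p = 0.0231). OsLUX and OsFKF1 differed by 4.39 and 5.91 in csa, with gaps at an edgeR adjusted p of 0.79 and 0.159. BAM3 differed by -1.93 in csa, GA2ox3 by 2.18 and CAB1R by 2.26, each in the WT direction.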

How the data were processed

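Total RNA of anthers and flag leaves was sequenced. The authors deposited raw counts of reads per gene, in a table for each tissue with 55986 genes under LOC_Os locus IDs. The sources used here name no aligner, counter, strand setting or genome build, so reads of overlapping or antisense genes cannot be told apart. From these counts, genes with low counts were removed with filterByExpr, libraries were scaled by TMM, and edgeR 4.0.16 (R 4.3.3) fitted 8 group means to 16 anther libraries (glmQLFit, glmQLFTest, Benjamini-Hochberg over all tested genes). A joint fit held 8 WT anther and 8 WT leaf libraries. Only the anther fit, and only its contrast over both photoperiods, was tried on simulated counts with 200 changed genes. It recovered 88% of 2-fold and 100% of 4-fold changes, and 3.09% of its calls were false. The simulated spread followed the fitted trend alone, so replicates that stand apart were not imitated. Library totals limit precision: 10 counts were 0.386 to 0.535 CPM.

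Groups came from the labels. Samples were not treated as paired by replicate number, as same-numbered libraries deviated from their group means with correlations of -0.41 to 0.35. Replicates also stood apart in marker genes, so these correlations cannot exclude a shared plot or harvest. Replicates of a group differed by more than sampling noise, with a chi-square per gene of 9.88 to 38.6.

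The comparison and the 21 lists of 261 genes (259 in the table, 250 tested) were chosen with earlier results of these data known. Gene symbols come from general knowledge. A RefSeq gene table for rice holds the same symbol or another name of it on the same chromosome for 165 genes, and the other 96 could not be checked. Genes named in the text were the clock genes, CSA and up to 4 members of each other list called over both photoperiods with the lowest p. A further member per list was named where its photoperiod or tissue difference was called. Also named were 2 IDs with the largest difference at each hour, and 4 with the lowest p for a gap between photoperiods. Alternatives were RLE scaling, DESeq2 1.42.0, no filter, WT libraries alone, a minimum fold of 2, a replicate block and leaving out libraries.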

Additional observations from a re-analysis of the deposited data

Results flagged for a closer look

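The hour difference of the genes below differed between short and long days, or between anthers and flag leaves, at an edgeR adjusted p below 0.05 for the difference itself. Values are log2 differences of differences, and no cause was tested. Groups had 2 libraries each, too few to look for outlying samples within a group.

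Between photoperiods the values are SD minus LD. For clock genes they were 2.85 for OsLHY, -1.51 for OsPRR1, -1.37 for OsPRR37, -0.996 for OsPRR73, -2.03 for OsGI, -0.73 for OsELF3-1, -1.71 for OsLUX, -0.73 for OsZTL2 and -2.41 for OsFKF1. Among light, flowering and photosynthesis genes they were 1.81 for PIL11, 1.76 for OsCOL4, 2.63 for CAB1R, 2.23 for CAB2R, 2.31 for LHCB3, 2.37 for LHCA4, 0.92 for CHLH, 1.41 for PSY3 and 0.70 for HEMA1. Sugar and starch genes gave 3.21 for OsSWEET2b, 2.84 for OsMST6, 1.53 for OsVIN2, -1.10 for Pho1, -1.19 for BEIIa, -1.50 for AGPL2, 1.31 for TPP1 and -0.86 for TPS1. Tapetum and hormone genes gave 0.82 for TDR, 1.25 for RAFTIN1, 1.33 for AOC, 1.22 for JAZ4, -0.84 for JAZ8, 0.58 for GID2, 1.40 for GA20ox2 and 1.58 for SLR1. Of the remaining lists, the value was 0.77 for GS1;1, 2.32 for CATA, 2.50 for CATC, 0.76 for HSFA2d, -0.88 for BiP1, -1.99 for HSP26, -0.79 for HSFA2c, 2.15 for PIP2;1, 1.47 for PIP1;2, 1.35 for PIP2;7, 1.84 for TIP1;1 and 1.203 for PIP1;1. By ID it was -2.17 for LOC_Os04g57880, 4.08 for LOC_Os10g18370 (-0.85 without SD 16:00 replicate 2), 2.72 for LOC_Os05g14240, 3.02 for LOC_Os08g37840, 2.82 for LOC_Os04g58055 and 2.16 for LOC_Os09g20024.

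Between tissues the values are anther minus flag leaf. They were 2.24 for OsLHY, -4.14 for OsPRR1, -6.04 for OsPRR37, -6.13 for OsPRR73, -1.85 for OsPRR59, -6.19 for OsPRR95, -3.75 for OsGI, 1.07 for OsELF3-1, -0.54 for OsELF3-2, -4.70 for OsLUX, 0.63 for OsZTL2 and -8.26 for OsFKF1. The fitted value of OsFKF1 depends on the prior count, since its leaf level at 04:00 was at or near 0. Of the other genes, BAM3 gave 3.80, CAB1R -4.33, CAB2R -3.05, CATA -3.45, RCA 3.90, TPP1 -6.10, OsCOL4 3.63 and PIP2;7 -5.77.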

How the results depend on the processing

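The count of 4212 genes called between the hours was 4177 with RLE scaling, 5055 with no filter and 4612 with DESeq2. It fell to 528 (321 higher at 16:00) in the additive fit of WT libraries, 202 (141 higher at 16:00) against a minimum fold of 2, and 1332 without the first SD library of each hour, an alternative chosen after seeing the data. That last alternative also gave 1612 genes in SD, 2526 for the gap between photoperiods and 4288 for the gap between genotypes. WT libraries alone gave 1720 genes in LD.

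Leaving out each library in turn gave 2023 to 3844 genes over both photoperiods, 3024 to 7654 in SD, 781 to 2630 in LD, 3408 to 5992 for the gap between photoperiods, 4645 to 6549 between genotypes and 8872 to 9999 between tissues. The libraries that moved the count over both photoperiods by more than 1.5 times were SD 16:00 replicate 2 (2210), SD 04:00 replicate 1 (2143) and LD 04:00 replicate 1 (2023). In SD they were 16:00 replicate 1 (4646) and replicate 2 (3285) and 04:00 replicate 1 (3024), and in LD 16:00 replicate 2 (1281) and 04:00 replicates 1 (781) and 2 (1272). For the gap between photoperiods they were SD 16:00 replicate 2 (3408), SD 04:00 replicate 1 (3615), and LD 04:00 replicates 1 (3894) and 2 (4172). Where an arm kept 1 library, it was assumed to vary like the others.

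The replicate number was also tried as a block, though only the number is known to be shared. Counts were then 3614 over both photoperiods, 6944 in SD and 2287 in LD. They were 5991 for the gap between photoperiods, 6174 between genotypes and 9655 between tissues.

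Of 64 named genes called over both photoperiods, 17 were called in all 15 alternatives: the 8 clock genes, OsSWEET2b, BAM3, GA2ox3, CAB1R, CAB2R and the 4 IDs of largest difference. Those 4 IDs had been picked for their size and lack of overlap in these data. The minimum fold of 2 asks a stricter question, and COP1, PHYA, SSIIIb, TPP1 and UDT1 lost their call there alone. ELIP lost its call in 14, GAMYB in 13, ASN2 in 11, HXK4 and GA20ox2 in 10 and MADS50 in 9. With no filter on low counts, CSA (edgeR adjusted p = 0.048) and MADS62 (edgeR adjusted p = 0.00445) were called. The gap between photoperiods of LOC_Os10g18370 turned to -0.85 without SD 16:00 replicate 2, which left only replicate 1, at 0 CPM, in that group. Leaving out the other libraries gave 3.54 to 5.14. The cause of these changes was not tested.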
